A study of Mus musculus with 15 samples.

Results

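The 36 genes described here take fatty acids into muscle cells, activate them and oxidize them in mitochondria. They are the genes of uptake and release, of activation to acyl-CoA, of the carnitine shuttle and of β-oxidation, with the enzymes that pass its electrons on, 3 thioesterases and the enzymes that make and remove malonyl-CoA. Members were taken by name, and all 36 were found, each in 1 row, among the 56980 genes of a bulk RNA-seq table. Dasatinib, a kinase inhibitor, and quercetin, a flavonoid, are given together (D + Q) to remove senescent cells, and the study asked how this treatment changes dystrophic muscle. All 15 mice carried the DBA/2J-mdx genotype, which lacks dystrophin, and no wild-type animal is among them. The tibialis anterior (TA), a fast muscle of the lower leg, was collected at 5 months of age from 4 mice given vehicle and 4 given D + Q 2 times per week for 2 months from 3 months of age. Hearts were collected at 16 months from 4 mice given vehicle and 3 given D + Q on the same schedule for 4 months from 12 months of age. Tissue therefore goes together with age and length of treatment, and these cannot be told apart. Vehicle TA replicates 1 and 3 were male and 2 and 4 female, while all 4 D + Q–treated TA mice were male. Vehicle hearts 1 and 4 and D + Q–treated heart 3 are labelled male and the other hearts female.

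Values are TPM, transcript abundances that are scaled for transcript length and sum to 1000000 in every library, so levels can be compared between genes. TPM keeps no depth, and the precision of each value rests on the spread between mice. Between 21830 and 25378 genes were above 0 per library. Cardiac transcripts marked the hearts, with 6 cardiomyocyte genes summing to 16703 to 18177 TPM in vehicle hearts and 20623 to 21861 TPM in D + Q–treated hearts, against 54.6 to 120.3 TPM in vehicle TA, where Tnni3 and Ryr2 stayed under 0.5 TPM. Fast-fibre genes (Myh4, Myh1, Tnnt3, Actn3 and Tnni2) summed to 21301 to 23440.4 TPM in vehicle TA and to 1.14 to 1.80 TPM in vehicle hearts. D + Q–treated heart 2 stood apart with 51.1 TPM of these fast-fibre genes. D + Q–treated heart 3, labelled male, goes against its label, since Xist stood at 47.2 TPM and no Y-linked gene examined exceeded 0.0279 TPM. By these genes all 3 D + Q–treated hearts read as female.

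Long-chain fatty acids reach the heart and oxidative muscle fibres as triglyceride in lipoproteins or bound to albumin. They are freed by lipoprotein lipase, taken up with the help of CD36, bound by FABP3 in the cytosol and joined to coenzyme A by the acyl-CoA synthetases. CPT1 hands the acyl group to carnitine at the outer mitochondrial membrane, the step that malonyl-CoA inhibits, and CPT2 returns it to coenzyme A inside. There the β-oxidation spiral removes acetyl-CoA units in repeated rounds of dehydrogenation, hydration, dehydrogenation and cleavage, and the heart draws much of its ATP from this route.

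Promoters were read from the GRCm39 genome as the 250 bases before the start of the canonical transcript. They are shown for the CPT1 isoform pair, whose members differed in direction between the heart groups, for the neighbouring thioesterase genes with the 2 highest fold changes in heart, and for the space between the genes of the trifunctional protein. Each is written 5′ to 3′ on the strand of its gene, and capitals mark the E-box letters CACGTG.
Cpt1b (chr15:89310226-89310475, minus strand): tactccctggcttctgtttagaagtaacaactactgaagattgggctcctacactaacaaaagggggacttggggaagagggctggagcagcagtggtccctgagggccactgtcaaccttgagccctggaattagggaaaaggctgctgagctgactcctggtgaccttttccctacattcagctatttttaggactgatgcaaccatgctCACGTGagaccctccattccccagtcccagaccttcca
Cpt1a (chr19:3373021-3373270, plus strand): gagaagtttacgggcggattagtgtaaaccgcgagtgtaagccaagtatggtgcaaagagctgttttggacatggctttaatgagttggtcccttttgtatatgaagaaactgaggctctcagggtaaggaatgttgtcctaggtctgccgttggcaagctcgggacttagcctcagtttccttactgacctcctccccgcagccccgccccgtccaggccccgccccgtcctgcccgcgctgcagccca
Acot1 (chr12:84056006-84056255, plus strand): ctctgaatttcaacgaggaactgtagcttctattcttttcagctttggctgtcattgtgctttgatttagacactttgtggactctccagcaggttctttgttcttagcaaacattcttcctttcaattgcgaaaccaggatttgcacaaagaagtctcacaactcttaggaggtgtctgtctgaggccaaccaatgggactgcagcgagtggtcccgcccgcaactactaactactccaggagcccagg
Acot2 (chr12:84034178-84034427, plus strand): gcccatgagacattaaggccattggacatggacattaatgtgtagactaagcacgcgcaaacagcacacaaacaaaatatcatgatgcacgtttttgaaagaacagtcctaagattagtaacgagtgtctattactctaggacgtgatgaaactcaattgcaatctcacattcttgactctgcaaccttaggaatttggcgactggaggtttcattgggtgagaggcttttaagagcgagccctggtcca
Hadha to Hadhb (chr5:30360182-30360245, plus strand): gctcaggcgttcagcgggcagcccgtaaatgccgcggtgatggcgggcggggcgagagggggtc
Hadha on the minus strand and Hadhb on the plus strand of chromosome 5 start head to head, with 64 bases between their canonical start sites, and the last sequence is all of that interval. Acot2 and Acot1 follow each other on the plus strand of chromosome 12, with 15608 bases between the end of Acot2 and the start of Acot1.

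In these 250-base windows, the palindromic E-box CACGTG, which clock and other basic helix-loop-helix factors can bind, was found in 2 of 36 members, at -38 to -33 from the start of Cpt1b and at -13 to -8 from the start of Etfa. It was present in 6.26% of the windows of 21770 protein-coding genes. Both strands were searched for every motif. The direct repeat of AGGTCA with 1 base between the copies, bound by PPAR with RXR, was in no member window and in 0.0367% of all windows. Its looser form with copies of AGGNCA, which includes the strict one, was in no member window and in 0.349% of all windows. TNAAGGTCA, a binding motif of the estrogen-related receptors, and TTANGTAA, the D-box, were also in no member window, against 1.09% and 2.08% of all windows. The absence says only that these letters are not in these windows.

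To describe the levels without D + Q, hearts and TA of vehicle-treated mice were compared. Most of the pathway was higher in heart. Genes were called where the adjusted p-value was under 0.05 and the log2 fold change exceeded 0.5 in either direction. Of the 36 members, 27 were called higher in heart and 4 lower, and every vehicle heart lay above every vehicle TA for 29 members and below for 4. Both sets of 4 include Slc27a6, which passed the filter on low values through TA libraries alone. Over all 17868 genes tested, 14.1% were called higher in heart and 22.6% lower by the same rule, and 15% did not overlap with heart above and 25.9% with heart below. The members had a median log2 fold change of 1.18, against -0.16 for all genes tested, and 31 were positive, against 38.5% of all genes. Together they made up 0.722 to 0.879% of all TPM in vehicle hearts and 0.208 to 0.290% in vehicle TA. Fold changes throughout come from limma on log2(TPM + 0.5), a scale that shrinks the changes of weakly expressed genes, and are given with their SE. Group means are given with the SD, with n = 4 for each group other than the D + Q–treated hearts, where n = 3.

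The 2 highest fold changes belonged to uptake genes. Fabp3, the heart-type fatty acid binding protein, was the most abundant member in both tissues, with 2339, 1814, 2504 and 2286 TPM in the 4 vehicle hearts and 344, 246, 247 and 241 TPM in the 4 vehicle TA muscles. Its log2 fold change of 3.05 ± 0.13 (adjusted p = 2.64e-11) was the highest of the 36. Lpl, lipoprotein lipase, had 789, 766, 900.1 and 779.9 TPM in vehicle hearts and 142, 172, 127 and 116 TPM in vehicle TA, a log2 fold change of 2.55 ± 0.13 (adjusted p = 4.12e-10). For both genes every heart lay far above every TA muscle. Of the 51-base runs of the Fabp3 transcript, searched on either strand, 70.4% also occur in other genes. Of all its runs, 41.4% occur in Zcchc17, which overlaps it on the opposite strand and was listed at 6.47 to 22.3 TPM. Most of the rest occur in the pseudogene Fabp3-ps1, so the assignment of its reads is uncertain. Cd36, the fatty acid translocase, averaged 533 ± 37.4 TPM in heart and 171 ± 30.2 TPM in TA (log2 fold change 1.65 ± 0.12, adjusted p = 1.75e-08).

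Of the fatty acid transport proteins, Slc27a1 was higher in heart and Slc27a6 lay near the floor in both tissues. Slc27a1 (FATP1) had 43.0, 48.9, 50.7 and 45.6 TPM in vehicle hearts and 22.9, 19.3, 16.0 and 11.6 TPM in vehicle TA (log2 fold change 1.44 ± 0.16, adjusted p = 3.23e-06). Slc27a6 (FATP6) was close to absent, with 0.175, 0.0745, 0.0975 and 0.189 TPM in vehicle hearts and 0.369, 0.451, 0.778 and 0.279 TPM in vehicle TA, a log2 fold change of -0.59 ± 0.20 (adjusted p = 0.0262) that lost its call without vehicle heart 2 or 3 (adjusted p = 0.0633 and 0.0590) or with a pseudocount of 1. Testing required 0.5 TPM in 3 or more libraries. Slc27a6 met this only in TA (0.778 TPM with vehicle, 0.652 and 0.618 TPM with D + Q), so its call does not establish a tissue difference. Pnpla2, the adipose triglyceride lipase that opens the cell's own lipid droplets, averaged 146 ± 8.65 TPM in heart and 111 ± 21.7 TPM in TA. Its groups did not overlap, and its log2 fold change of 0.42 ± 0.13 (adjusted p = 0.0154) stayed under the minimum of 0.5.

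Among the long-chain acyl-CoA synthetases, Acsl1 was higher in heart while Acsl3, Acsl4 and Acsl6 were lower. Acsl1, the main form of heart and oxidative tissues, had 176, 173, 212 and 183 TPM in vehicle hearts and 106, 99.0, 76.8 and 86.7 TPM in vehicle TA (log2 fold change 1.01 ± 0.11, adjusted p = 3.25e-06). Its hearts all lay above its TA muscles. Acsl3, an enzyme of the endoplasmic reticulum and lipid droplets, had 4.01, 4.34, 3.78 and 3.09 TPM in vehicle hearts and 14.4, 23.9, 20.4 and 17.0 TPM in vehicle TA (log2 fold change -2.16 ± 0.18, adjusted p = 1.05e-07), the lowest of the 36. For Acsl4, which prefers arachidonic acid, the values were 5.38, 5.97, 5.32 and 5.17 TPM and 14.7, 16.7, 19.0 and 13.7 TPM (log2 fold change -1.46 ± 0.16, adjusted p = 2.30e-06). For Acsl6, known from brain and muscle, they were 7.25, 6.39, 5.57 and 6.59 TPM and 13.5, 14.2, 11.4 and 11.4 TPM (log2 fold change -0.92 ± 0.11, adjusted p = 7.75e-06). Each of these 3 genes had all its vehicle hearts below all its vehicle TA muscles. Acsl5 overlapped, with 8.69, 7.53, 8.18 and 7.91 TPM in vehicle hearts and 6.93, 6.83, 9.21 and 5.48 TPM in vehicle TA. In summed synthetase TPM, Acsl1 took 87.4% to 90.3% in vehicle hearts and 56.1% to 68.1% in vehicle TA.

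**Figure D1:**
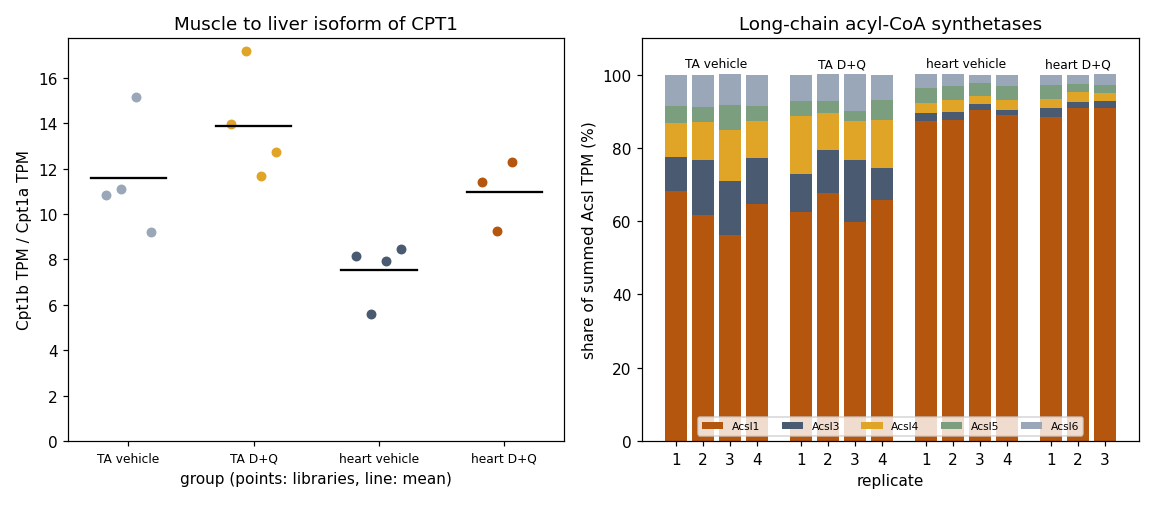
Left, the ratio of Cpt1b to Cpt1a TPM in each library (points) with the group mean (line). Right, the share of summed Acsl1, Acsl3, Acsl4, Acsl5 and Acsl6 TPM in percent, as 1 stacked bar per library. Acsl1 takes at least 87.4% of the synthetase TPM in every heart and at most 68.1% in any TA muscle, and the 3 D + Q–treated hearts have a higher Cpt1 ratio than the 4 vehicle hearts.

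The muscle isoform of CPT1 dominated in both tissues, and the liver isoform took a larger share in vehicle heart. Cpt1b, the muscle isoform, had 160.5, 140.3, 179 and 166 TPM in vehicle hearts and 124, 101, 96.4 and 70.4 TPM in vehicle TA (log2 fold change 0.74 ± 0.14, adjusted p = 0.000427). Cpt1a, the liver isoform, had 19.7, 25.1, 22.5 and 19.7 TPM and 11.4, 9.10, 6.36 and 7.65 TPM (log2 fold change 1.31 ± 0.17, adjusted p = 1.30e-05). The ratio of Cpt1b to Cpt1a was 8.14, 5.59, 7.95 and 8.46 in vehicle hearts and 10.9, 11.1, 15.2 and 9.20 in vehicle TA. These ratios did not overlap. Of the 51-base runs of the Cpt1b transcript, 88.0% also occur in the read-through gene Gm44502, which was listed at 0.170 to 1.22 TPM over the 15 libraries.

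The other shuttle genes split. Cpt2, the inner-membrane partner of CPT1, averaged 59.1 ± 6.89 TPM in heart and 29.4 ± 4.14 TPM in TA (log2 fold change 1.00 ± 0.12), and Mlycd, the decarboxylase that removes malonyl-CoA, 23.6 ± 2.52 and 15.5 ± 4.55 TPM (log2 fold change 0.64 ± 0.16). Both passed the test. Acacb, the mitochondrial acetyl-CoA carboxylase that makes malonyl-CoA, overlapped at 39.8 ± 1.82 and 38.1 ± 8.11 TPM, and so did Crat, carnitine acetyltransferase, at 146 ± 10.6 and 161 ± 21.7 TPM. The log2 fold changes of these overlapping genes were 0.09 ± 0.14 and -0.14 ± 0.10, neither with an adjusted p under 0.05, and that of Crat turned to 0.05 with median-of-ratios scaling.

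Inside the mitochondrion the difference was uniform in direction. All 4 acyl-CoA dehydrogenases, which open each round for a chain-length class, were called higher in heart, from a log2 fold change of 1.02 for Acadvl to 1.61 for Acadm. All 5 genes of the later steps were too, from 1.40 for Echs1, the short-chain hydratase, to 1.94 for Hadhb, the thiolase subunit of the trifunctional protein. Hadha and Hadhb, its α and β subunits, which start head to head as shown above, stood at 334 ± 35.8 and 375 ± 46.9 TPM in heart and 111 ± 12.0 and 98.4 ± 21.2 TPM in TA. Hadhb shares 61.8% of its 51-base runs with the pseudogene Hadhb-ps, which was listed at 12.3 to 17.2 TPM in vehicle hearts, so the split of reads between these is uncertain.

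The genes that handle double bonds and electrons followed. Ech1, a dienoyl-CoA isomerase, had 347, 289, 396 and 408 TPM in vehicle hearts and 90.3, 78.8, 75.8 and 55.8 TPM in vehicle TA, with a log2 fold change of 2.26 ± 0.15 (adjusted p = 9.39e-09) that was the highest outside the uptake group. Eci1 and Decr1, an enoyl-CoA isomerase and the dienoyl-CoA reductase, were called at 1.19 and 0.93, and Eci2, another isomerase, passed the adjusted p-value (0.00324) at 0.47, under the minimum fold change. The electron transfer flavoprotein subunits Etfa and Etfb and its dehydrogenase Etfdh had log2 fold changes of 1.29, 1.14 and 1.70, and all 3 were called.

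The thioesterases, which return acyl-CoA to free acid, were higher in heart as well. Acot1, the cytosolic form, had 2.88, 2.81, 4.70 and 3.16 TPM in vehicle hearts and 0.926, 1.06, 0.177 and 0.482 TPM in vehicle TA (log2 fold change 1.79 ± 0.33). Acot2, the mitochondrial form, had 23.9, 19.4, 25.8 and 23.4 TPM and 12.5, 7.69, 6.67 and 5.69 TPM (95% interval of the log2 fold change 1.12 to 1.89). Acot13 averaged 158 ± 9.39 and 69.9 ± 5.19 TPM (log2 fold change 1.17 ± 0.08). Acot1 and Acot2 share 23.6% of the 51-base runs of Acot1 and 22.2% of those of Acot2.

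**Figure D2:**
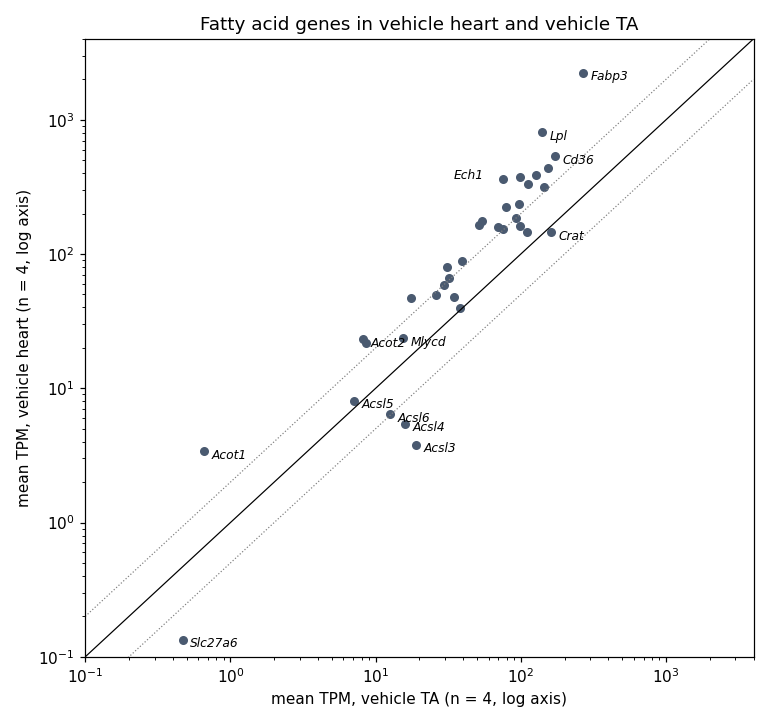
Mean TPM of each of the 36 members in vehicle TA (x axis) and vehicle heart (y axis), 4 mice each, both on log axes. The solid line marks equal levels and the dotted lines a ratio of 2 in either direction. Most points lie above the upper dotted line, with Fabp3 and Lpl farthest, and Acsl3, Acsl4, Acsl6, Slc27a6 and, by a small margin, Crat lie below equality.

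In D + Q–treated mice the same contrast of heart with TA gave 28 members called higher and 4 lower, with a median log2 fold change of 1.37 and 31 positive, against 43.8% of all genes. By that rule 15.9% of the 17868 genes tested were higher and 21.4% lower. Fabp3 and Lpl were again the 2 highest at 3.01 and 3.00, and Acsl3, Acsl4, Acsl6 and Slc27a6 were the 4 called lower. As in the vehicle contrast, Slc27a6 was tested only because TA libraries passed the filter. Slc27a6 had 0.0765, 0.173 and 0.0400 TPM in D + Q–treated hearts and 0.652, 0.618, 0.168 and 0.331 TPM in D + Q–treated TA, which overlapped, and it was not called without D + Q–treated heart 1 or 3 (adjusted p = 0.0750 and 0.0976) or with sex as covariate (0.103), nor with a pseudocount of 1.

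The next comparison asked how the pathway differed in hearts of D + Q– and vehicle-treated mice. At the thresholds above, 0 of the 35 members tested were called higher (against 0.105% of all genes) and 0 lower (against 0.211%), and Lpl had the smallest adjusted p-value by limma, 0.0891. Slc27a6 fell under the filter of 0.5 TPM in 3 libraries. Below that threshold the members leaned one way. Log2 fold changes were positive for 33 of 35, with a median of 0.23 against -0.0025 for all genes, of which 49.5% were positive. An unadjusted p-value under 0.05 was reached by 24 members with higher levels in D + Q–treated hearts (68.6%, against 9.65% of the 16132 genes tested) and by 1 with lower levels (against 7.99%). Every D + Q–treated heart lay above every vehicle heart for 19 members (54.3%, against 9.63% of all genes), and no member had all D + Q–treated hearts below (against 5.57%). With sex read from expression in place of the label, 32 members were positive and 19 were higher at that p, against 804 of the 16132 genes tested. In that fit 3 of all genes were called higher and 22 lower in place of 17 and 34. The members summed to 9264 to 10184 TPM in D + Q–treated hearts and 7223 to 8788 TPM in vehicle hearts. The genes share the same 7 hearts, so these counts are not independent observations.

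**Figure D3:**
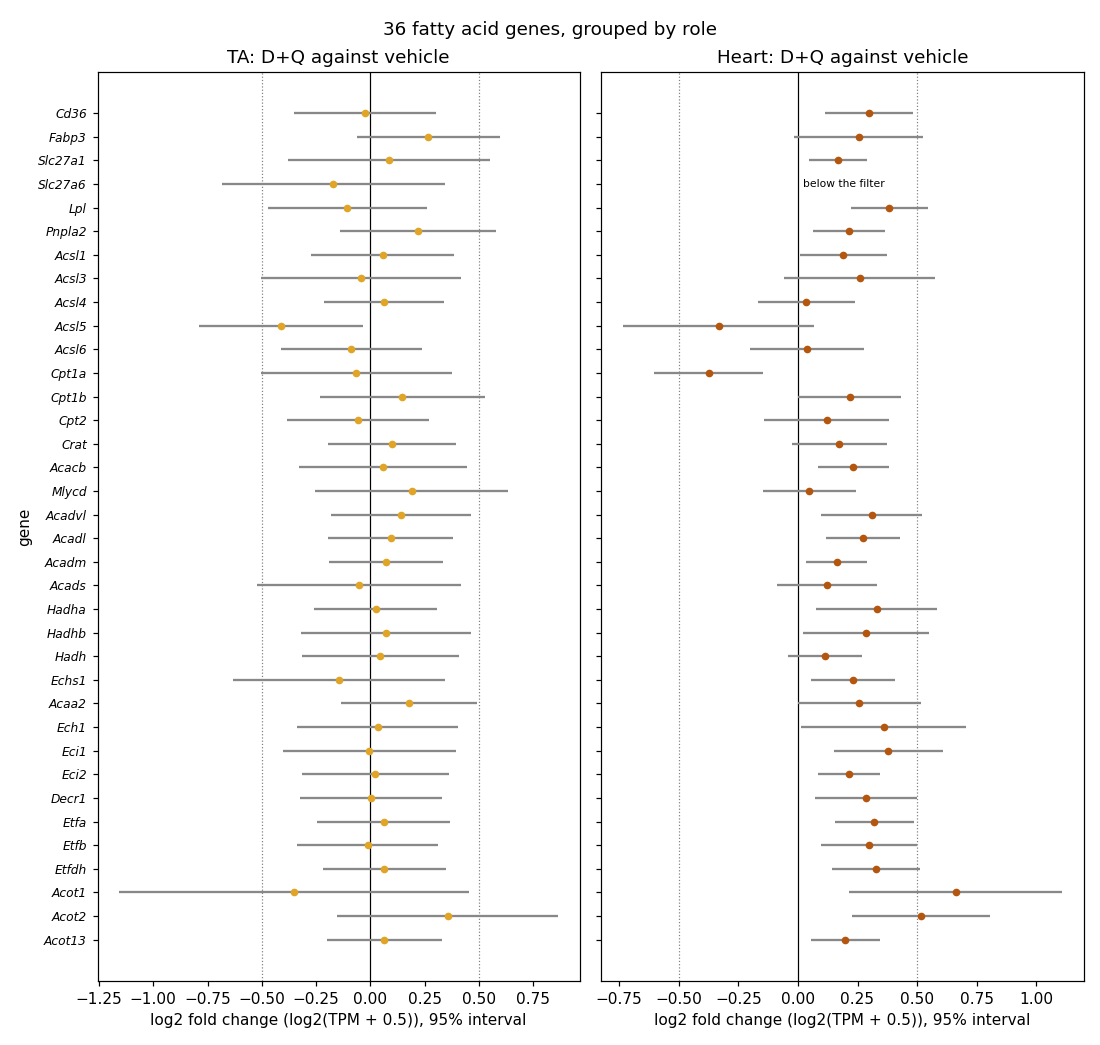
Log2 fold change (points) with its 95% interval (bars) of each member in TA (left) and heart (right), D + Q against vehicle, from limma on log2(TPM + 0.5). Dotted lines mark the minimum of 0.5 in either direction. In heart 33 of 35 points lie right of 0, with Cpt1a and Acsl5 to the left, while in TA the points scatter around 0 with wider intervals.

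Uptake genes were higher in D + Q–treated hearts, without passing the adjusted test. Lpl had 1079, 1051 and 1049.5 TPM in the 3 D + Q–treated hearts against the 789, 766, 900.1 and 779.9 TPM of the vehicle hearts, a log2 fold change of 0.38 ± 0.07 with an unadjusted p of 0.000719. The groups did not overlap, although vehicle heart 3 lay well above the other vehicle hearts. Fabp3 had 2669.8, 2706 and 2536 TPM, above the highest vehicle heart by a small margin (log2 fold change 0.25 ± 0.11, unadjusted p = 0.0613). Without vehicle heart 2, the lowest of the 7, its fold change was 0.12. Cd36 averaged 657 ± 43.3 TPM and Pnpla2 172 ± 15.5 TPM, both without overlap with vehicle hearts (log2 fold changes 0.30 ± 0.08 and 0.21 ± 0.06). Slc27a1 had 56.1, 56.4 and 49.5 TPM, which overlapped the vehicle hearts (log2 fold change 0.17 ± 0.05).

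No acyl-CoA synthetase passed the adjusted test. All 5 overlapped between the heart groups, and 1 reached an unadjusted p under 0.05. That gene, Acsl1, had 208, 216 and 214 TPM in D + Q–treated hearts (log2 fold change 0.19 ± 0.08, unadjusted p = 0.0438), and only vehicle heart 3 came as high. Acsl5, which is found on mitochondria and the endoplasmic reticulum, had 8.76, 5.40 and 5.44 TPM against 8.69, 7.53, 8.18 and 7.91 TPM, with D + Q–treated heart 1 above and the other two below all vehicle hearts (log2 fold change -0.33 ± 0.17, unadjusted p = 0.0903). That value was -0.53 without D + Q–treated heart 1 and -0.18 without D + Q–treated heart 3. A total of 36.2% of its 51-base runs also occur in Zdhhc6, which overlaps it on the opposite strand. Zdhhc6 was listed at 9.29 to 16.8 TPM over the 15 libraries, so the assignment of Acsl5 reads is uncertain. Acsl3 had 5.61, 4.29 and 4.36 TPM, Acsl4 5.96, 5.92 and 5.21 TPM and Acsl6 6.95, 6.20 and 6.44 TPM, with log2 fold changes of 0.26 ± 0.13, 0.04 ± 0.09 and 0.04 ± 0.10.

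The CPT1 isoforms had fold changes of opposite sign, neither past the adjusted test. Cpt1a had 16.7, 21.3 and 14.3 TPM in D + Q–treated hearts against 19.7, 25.1, 22.5 and 19.7 TPM in vehicle hearts, a log2 fold change of -0.37 ± 0.10 (unadjusted p = 0.00599, adjusted p = 0.129). D + Q–treated heart 2 overlapped the vehicle range and the other two lay below it. Cpt1b had 191, 198 and 176 TPM against 160.5, 140.3, 179 and 166 TPM, with overlap (log2 fold change 0.22 ± 0.09, unadjusted p = 0.0487). The ratio of Cpt1b to Cpt1a was 11.4, 9.27 and 12.3 in D + Q–treated hearts, above the 5.59 to 8.46 of all vehicle hearts. No test was run on this ratio. With the mean level of the atrial genes Myl7, Myl4, Sln and Nppa in place of sex in the model, the log2 fold change of Cpt1a turned positive (0.39 ± 0.39). Acacb was the shuttle or malonyl-CoA gene whose groups did not overlap, at 47.7 ± 4.26 against 39.8 ± 1.82 TPM (log2 fold change 0.23 ± 0.06, unadjusted p = 0.00780). Cpt2, Crat and Mlycd had log2 fold changes of 0.12 ± 0.11, 0.17 ± 0.08 and 0.05 ± 0.08, none with an unadjusted p under 0.05.

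No dehydrogenase or later enzyme of the spiral passed the adjusted test, and 7 of these 9 genes had higher levels at an unadjusted p under 0.05, without Acads and Hadh. Among the dehydrogenases, Acadvl, Acadl and Acadm did not overlap (log2 fold changes 0.31 ± 0.09, 0.27 ± 0.07 and 0.16 ± 0.05), while Acads, the short-chain form, did (0.12 ± 0.09). Acadl, long-chain acyl-CoA dehydrogenase, averaged 532 ± 36.1 against 439 ± 16.0 TPM. Hadha and Hadhb averaged 421 ± 40.0 and 454 ± 31.7 TPM against 334 ± 35.8 and 375 ± 46.9 TPM (log2 fold changes 0.33 ± 0.11 and 0.29 ± 0.11) and did not overlap. Echs1 did not overlap either (0.23 ± 0.08). Acaa2, the mitochondrial thiolase, and Hadh, the shorter-chain hydroxyacyl dehydrogenase, overlapped (0.26 ± 0.11 and 0.11 ± 0.07).

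None of the auxiliary and electron transfer genes passed the adjusted test. All 4 auxiliary enzymes reached an unadjusted p under 0.05, and Eci1 had the largest fold change, with 117 ± 12.3 against 89.0 ± 7.98 TPM (0.38 ± 0.10). Ech1, with 476, 521 and 393 TPM, overlapped, with D + Q–treated heart 3 below vehicle hearts 3 and 4 (log2 fold change 0.36 ± 0.15). Its fold change was 0.20 without vehicle heart 2 and 0.56 without D + Q–treated heart 3. All 3 electron transfer genes were without overlap. Etfa had 312, 289 and 295 TPM in D + Q–treated hearts against 216, 231, 264 and 237 TPM in vehicle hearts (log2 fold change 0.32 ± 0.07, unadjusted p = 0.00255). Etfb and Etfdh had log2 fold changes of 0.30 ± 0.09 and 0.33 ± 0.08, and 67.3% of the runs of Etfb also occur in the overlapping gene Etfbl, listed at 0.328 to 2.47 TPM.

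The 2 largest fold changes of the 35 belonged to thioesterases. Acot1 had 4.97, 7.24 and 5.13 TPM in D + Q–treated hearts against 2.88, 2.81, 4.70 and 3.16 TPM in vehicle hearts (log2 fold change 0.66 ± 0.19, 95% interval 0.22 to 1.11, unadjusted p = 0.00959). Vehicle heart 3 came close to the lowest D + Q–treated heart, without overlap. Acot2, its neighbour on chromosome 12, had 30.3, 38.1 and 31.4 TPM against 23.9, 19.4, 25.8 and 23.4 TPM (log2 fold change 0.52 ± 0.12, unadjusted p = 0.00373). These 2 genes were the members whose log2 fold change exceeded 0.5, and their adjusted p-values were 0.150 and 0.116. Acot1 kept a similar share of their summed TPM, 10.8% to 15.4% in vehicle and 14.0% to 16.0% in D + Q–treated hearts. Acot13 was higher by a smaller amount (0.20 ± 0.06), also without overlap.

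**Figure D4:**
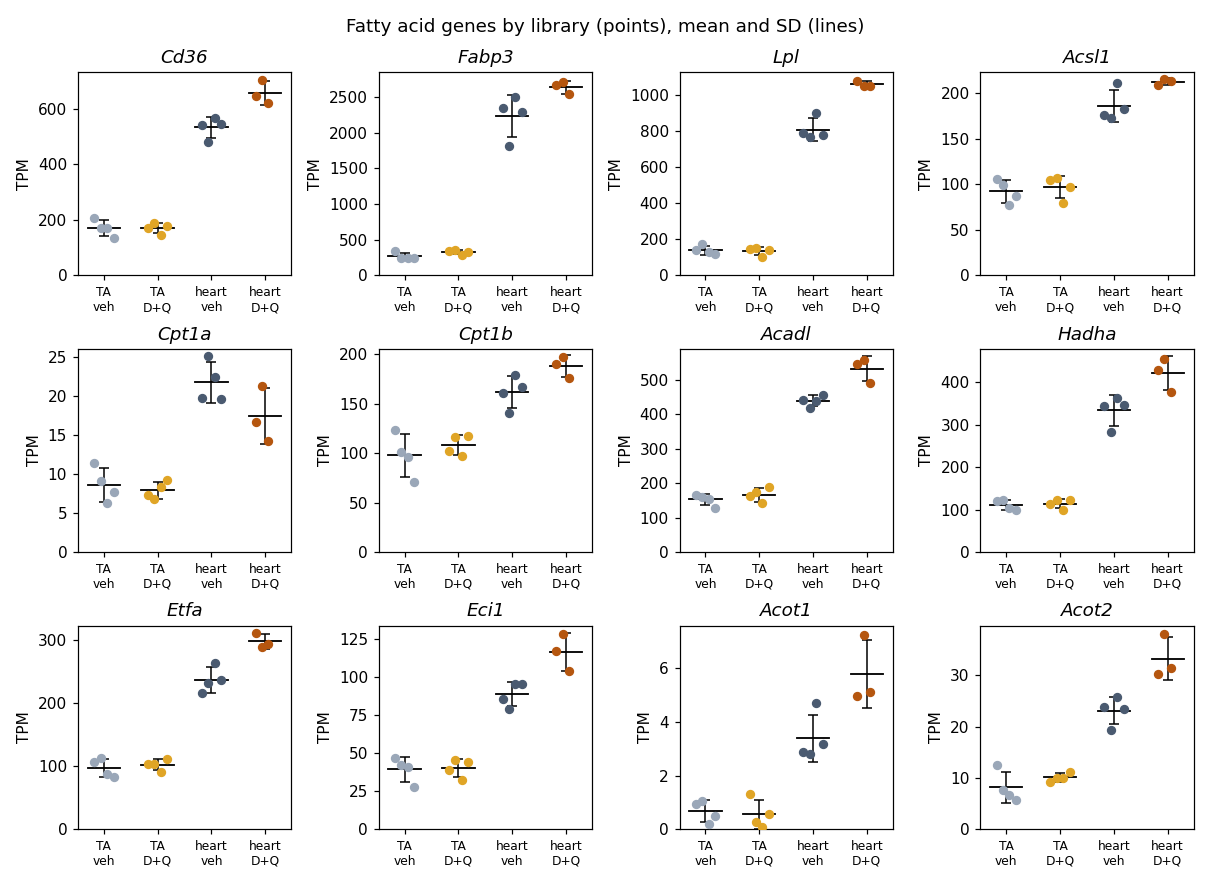
TPM of 12 members in each library (points), with the group mean and SD (lines), on axes that start at 0. The D + Q–treated hearts lie above all vehicle hearts for 9 of these genes, and Cpt1a is the gene whose heart mean is lower with D + Q.

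Genes next to the pathway were read from fixed lists, and 0 of them were called in heart by this fit. Of 8 genes of general mitochondrial content, such as citrate synthase (Cs), all 8 had positive log2 fold changes with a median of 0.23, and 7 reached an unadjusted p under 0.05. The smallest p was that of Sdha, a subunit of succinate dehydrogenase (0.33 ± 0.06, adjusted p = 0.0934). The 35 fatty acid genes and these mitochondrial genes outside the pathway thus had medians of like size. A list of 16 other genes of acyl-CoA and carnitine handling was drawn as other mitochondrial fatty acid oxidation. It is mixed, since Slc22a5, Echdc1, Acot7 and Nudt7 in it are not enzymes of that route. Of the 16, 15 were positive and 3 reached p under 0.05 (median 0.13), with the smallest p for Hsd17b10 (0.22 ± 0.06). Peroxisomal β-oxidation, which shortens very long chains, was near 0, with 9 of 15 genes positive, 2 at p under 0.05 and a median of 0.03. Amacr, the racemase of branched-chain acyl-CoA, had its smallest p (0.40 ± 0.08, adjusted p = 0.0934).

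Of 18 genes of lipid delivery and lipid droplets, 16 were positive and 4 reached an unadjusted p under 0.05 (median 0.10), led by Vldlr, the very-low-density lipoprotein receptor (0.29 ± 0.06). Of 5 ketone body genes 4 were positive and 2 reached p under 0.05 (median 0.18), led by the monocarboxylate transporter Slc16a1 (0.30 ± 0.07). Among 15 regulators and targets, 13 were positive with a median of 0.23. The 5 higher at an unadjusted p under 0.05 were Ppargc1a, Esrrb, Esrrg, Lpin1 and Ppara. The study, which tested counts, names Ppargc1a among its upregulated genes in heart. Ppargc1a, the coactivator PGC-1α of mitochondrial and fatty acid genes, had 59.4, 78.2 and 59.3 TPM in D + Q–treated hearts and 35.6, 29.4, 44.3 and 29.7 TPM in vehicle hearts (log2 fold change 0.89 ± 0.16, adjusted p = 0.0908), without overlap. Ppara, the nuclear receptor that induces many of the members, had 12.6, 15.5 and 13.7 TPM and 9.89, 7.86, 13.6 and 9.70 TPM, with overlap (log2 fold change 0.43 ± 0.18, adjusted p = 0.269). Ucp2, an inner-membrane carrier, was the regulator with lower levels at an unadjusted p under 0.05 (-0.95 ± 0.18, adjusted p = 0.0934).

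**Figure D5:**
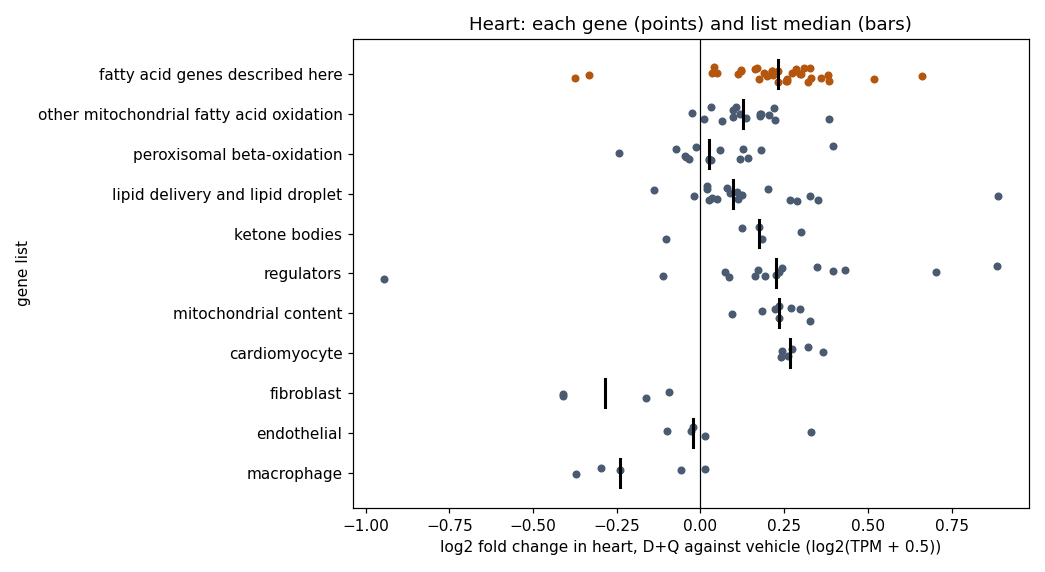
Log2 fold change in heart, D + Q against vehicle, of each gene (points) in 11 lists, with the list median (bars). The fatty acid genes have a median of 0.23, like mitochondrial content (0.23) and regulators (0.23) and near cardiomyocyte genes (0.27), while fibroblast genes have a median of -0.29.

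Markers of several cell types moved with the heart groups. Cardiomyocyte genes had positive log2 fold changes in 6 of 6 cases (median 0.27, 5 at an unadjusted p under 0.05), and their sum did not overlap between the groups. Fibroblast genes were negative in 4 of 4 (median -0.29), with sums of 374 to 435 and 456 to 666 TPM in D + Q–treated and vehicle hearts, without overlap. Endothelial, macrophage and adipocyte sums overlapped. Atrial muscle genes (Myl7, Myl4, Sln and Nppa) were lower in 4 of 4, 3 of them called, with sums of 382 to 427 against 862 to 4260.4 TPM, and Sln was under 0.5 TPM in all D + Q–treated hearts. Red cell genes were lower in 5 of 5, from 346 to 1231 TPM in vehicle to 26.8 to 122 TPM in D + Q–treated hearts. Clock genes did not overlap in 13 of 13 cases, 7 called lower and 1, Bmal1, called higher. Mitochondrially encoded genes took a median of 29.4% of TPM in D + Q–treated and 26.8% in vehicle hearts, with overlap, and the 10 highest genes 45.4 to 47.3% and 50.1 to 50.7%. The part of these markers in the members' levels was not tested. In bulk tissue more cardiomyocytes and more RNA per cardiomyocyte cannot be told apart.

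Vehicle heart 2 held the most atrial (4260.4 TPM) and red cell (1231 TPM) transcripts and the lowest member sum (7223 TPM). Without it, 33 of 35 members were still positive, the median was 0.20 and 19 were higher at an unadjusted p under 0.05, against 1254 of 15794 genes. With median-of-ratios scaling the median was 0.25 and 19 members were higher at that p, against 1601 of 16129 genes. When the mean log2 level of the 4 atrial genes replaced sex in the model, 31 members were positive with a median of 0.23. Of the 35, 5 were higher at that p, against 1444 of the 16132 genes tested. The median of all genes moved to 0.36, above that of the members. With that covariate, which does not overlap between the groups, the SE of Fabp3 was 0.32 in place of 0.11.

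The same comparison in TA found 0 of 36 members called, like 0% of all genes, all with an adjusted p of 0.999 from limma. The study, testing counts at these thresholds, did report up- and downregulated genes in TA, so the 0% describes this fit of TPM. None was higher at an unadjusted p under 0.05 (against 0.638% of the 16298 genes tested) and 1 was lower (against 2.36%), and no member's groups were free of overlap (against 0.264% above and 1.25% below). Log2 fold changes were positive for 23 members (against 33.6% of all genes), with a median of 0.05 against -0.07 for all genes. With labelled sex as covariate or in males only, 20 were positive with a median of 0.01, against -0.04 for all genes. Without vehicle TA replicate 4, 15 members were positive. The members summed to 2341 to 2865 TPM with D + Q and 2082 to 2901 TPM with vehicle.

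Acsl5, which shares sequence with Zdhhc6 as given above, was the member with an unadjusted p under 0.05 in TA. It had 7.32, 5.17, 3.72 and 8.01 TPM in D + Q–treated TA and 6.93, 6.83, 9.21 and 5.48 TPM in vehicle TA, a log2 fold change of -0.41 ± 0.17 (unadjusted p = 0.0359) in ranges that overlapped widely, and it did not reach that p with no covariate, with labelled sex or in males only. The highest fold changes were those of Acot2, Fabp3 and Pnpla2. Acot2 had 9.23, 9.99, 9.90 and 11.2 TPM with D + Q against 12.5, 7.69, 6.67 and 5.69 TPM with vehicle (0.36 ± 0.23), and vehicle replicate 1 was the highest of all 8. The fold change of Acot2 was 0.15 without D + Q–treated replicate 3 and 0.56 without vehicle replicate 1. Fabp3 had 338, 361, 279 and 331 TPM against 344, 246, 247 and 241 TPM (0.27 ± 0.15), where vehicle replicate 1 again lay among the D + Q–treated mice. Pnpla2 had 128, 149.7, 111 and 135 TPM against 137, 107, 114 and 84.3 TPM (0.22 ± 0.16). At the other end, Acot1 had 1.30, 0.280, 0.0668 and 0.556 TPM against 0.926, 1.06, 0.177 and 0.482 TPM (-0.35 ± 0.36), with low and overlapping levels in both groups. Its fold change was -0.86 without vehicle replicate 3 and -0.02 without D + Q–treated replicate 3. Slc27a6 had a log2 fold change of -0.17 ± 0.23.

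The isoform groups in TA also overlapped. Cpt1a had 7.34, 6.79, 8.29 and 9.23 TPM and Cpt1b 103, 117, 97.0 and 117 TPM with D + Q, and their ratio was 14.0, 17.2, 11.7 and 12.7 against 9.20 to 15.2 with vehicle. Acsl1 had 105, 107, 79.2 and 97.1 TPM and took 59.7% to 67.7% of the synthetase TPM with D + Q. Acsl3 had 17.9, 18.5, 22.5 and 12.8 TPM, Acsl4 26.2, 15.9, 14.1 and 19.3 TPM and Acsl6 11.9, 11.3, 13.0 and 10.4 TPM, and each overlapped its vehicle group. Slc27a1 had 19.9, 21.6, 15.7 and 17.3 TPM, Lpl 144, 151, 99.7 and 141 TPM, Ech1 72.0, 81.6, 67.2 and 91.1 TPM and Etfa 104, 104, 90.4 and 111 TPM with D + Q.

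The neighbouring lists in TA held 0 called genes by this fit, while the study's test of counts names the regulator Ppargc1b as downregulated there. The study also measured chosen genes by qPCR, and its primers include Ppargc1b. The smallest p of each list belonged to Acad10 (-0.45) among the other acyl-CoA and carnitine genes, Acaa1b (-0.26) among peroxisomal genes, Plin5 (0.40) in lipid droplets, Oxct1 (-0.35) among ketone body genes and Tomm20 (0.26) for mitochondrial content. Among regulators it was Pdk4, the pyruvate dehydrogenase kinase that spares glucose when fat is burned, with 537, 395, 393 and 694 TPM with D + Q and 435, 305, 349 and 271 TPM with vehicle (0.45 ± 0.18, unadjusted p = 0.0332, adjusted p = 0.999). It was the regulator that reached an unadjusted p under 0.05 in TA, and its groups overlapped. Adipocyte genes summed to 2.49 to 6.48 TPM with D + Q and 4.82 to 28.8 TPM with vehicle, and slow-fibre genes to 31.4 to 64.8 and 32.8 to 146 TPM. The high vehicle sums came from the females, replicates 2 and 4 (adipocyte 28.8 and 21.6 TPM, slow-fibre 146 and 101 TPM). Male vehicle replicates 1 and 3 (adipocyte 4.82 and 4.98 TPM, slow-fibre 57.4 and 32.8 TPM) lay within the ranges of the all-male D + Q group.

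The difference between the D + Q effect in heart and in TA was tested itself, in 1 model of all 15 libraries. No member was called (against 0.0168% of genes with a larger and 0.0448% with a smaller effect in heart), and 29 of 36 had a larger log2 fold change in heart, where 60.4% of the 17868 genes tested did. Lpl was the member with an unadjusted p under 0.05 (0.45 ± 0.20, unadjusted p = 0.0362, adjusted p = 0.886), against 3.71% of genes with a larger and 1.85% with a smaller effect in heart. Without vehicle TA replicate 4, 11 members reached that p, without vehicle TA replicate 3 it was 4, and without any single one of 8 other libraries it was 0. The count over all genes rose too. It was 1146 of 17767 genes with a larger effect in heart without vehicle TA replicate 4 and 1093 of 17761 without replicate 3, against 663 of 17868 with all libraries. The difference was 0.90 ± 0.48 for Acot1, -0.23 ± 0.25 for Cpt1a and -0.04 ± 0.19 for Fabp3, none at an unadjusted p under 0.05. The lean seen in heart was not shown to differ from TA for any single member by the adjusted test.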

How the data were processed

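RNA-seq of 8 TA and 7 heart libraries, each from 1 mouse, was used. According to the study's methods and the submitters' processing notes, Trim Galore 0.6.10 trimmed the reads, Salmon 1.10.3 quantified them on GRCm39, and tximport gave the gene-level TPM that the authors deposited. These TPM values carry neither the study's filter on counts nor its corrections. Depth is unknown, and the annotation release is not given in the sources used here. The authors' count test was not run, since TPM are not counts. That test called genes in both tissues at the same thresholds, so the calls given here are those of this fit alone.

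Identifiers were named from GENCODE M39 (56236 of 56980 found). A gene was tested where 3 or more libraries of a fit reached 0.5 TPM, with limma 3.58.1 in R 4.3.3 (lmFit, eBayes with a trend) on log2(TPM + 0.5), with Benjamini-Hochberg adjustment over all genes. The call took adjusted p-values under 0.05 with log2 fold changes beyond 0.5 in either direction. The TA model held 1 surrogate variable, estimated in 5 re-weighted rounds, and the heart model labelled sex. Heart fold changes and p-values of single genes therefore code D + Q–treated heart 3 as male unless another covariate is named. The tissue comparisons and the difference between effects used 1 model of 15 libraries with 4 group means. The code was tested on simulated data. Runs of 51 bases in each member's canonical transcript were matched, on either strand, against transcripts of all other genes, and promoter windows were read from the GRCm39 genome.

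Every member is named. Values of every library are given for members with the 3 highest or lowest fold changes or the 3 smallest p-values in TA or heart, for isoform groups and for the 3 highest and lowest between tissues. In other lists the gene with the smallest p is named, while Ucp2, Esrrb, Esrrg, Lpin1, Ppara and Bmal1 were picked for naming with their values in view. The members and lists were chosen with earlier results of these data known. The labels do not say that replicate numbers pair the mice.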

Additional observations from a re-analysis of the deposited data

Results flagged for a closer look

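Of 108 sets of 4 libraries (36 members in the 3 groups of 4 mice), 2 held a library far from the others by Dixon's test, which chance does in about 1 of 20 sets. Fabp3 in vehicle TA had its highest value, 344 TPM, in replicate 1, with the other vehicle TA muscles at 241 to 247 TPM. Lpl in vehicle hearts had its highest value, 900.1 TPM, in replicate 3, with the other vehicle hearts at 766 to 789 TPM. Without vehicle heart 3, the log2 fold change of Lpl in heart was 0.45 and its adjusted p from limma 0.0369, still under the minimum fold change of 0.5.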

How the results depend on the processing

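No member was called in TA, in heart or for the difference between effects under any alternative run, which covered pseudocounts of 0.1 and 1, looser and stricter filters, median-of-ratios scaling, limma with no trend, calls with no fold minimum, the other covariates, males only in TA and the omission of each library. In heart, members with a positive fold change numbered 31 to 33 and those higher at an unadjusted p under 0.05 numbered 18 to 23 when 1 library was left out, and 5 with atrial genes as covariate. Over all genes tested, 933 to 1669 were higher at that p with 1 library left out and 1444 with that covariate. With the replicate block, 33 members were positive and 21 were higher at that p in heart (938 over all genes), and 0 members were called. The labels do not say that the numbers pair the mice. Same-numbered mice deviated together with a mean correlation of -0.11 in TA and 0.000536 in heart, from too few pairs to exclude a pairing. Between vehicle tissues 27 to 29 members were called higher and 3 to 4 lower, and between D + Q tissues 27 to 29 and 3 to 4. Median-of-ratios scaling moved the vehicle median from 1.18 to 1.37, as it moved the median of all genes from -0.16 to 0.0036, and with it 3313 of all genes were called higher in heart and 2910 lower, in place of 2518 and 4038. With sex read from expression, 3 of all genes were called higher in heart with D + Q and 22 lower, in place of 17 and 34.

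In TA, 15 members were positive without vehicle replicate 4, 30 at most, and 2 to 3 were higher at an unadjusted p under 0.05 without vehicle replicate 1 or with median-of-ratios scaling. Over all genes, 173 of 16073 and 265 of 16258 were higher at that p in these fits. For the difference between effects the count of members at that p ran from 0 to 11 when 1 library was left out, the latter without vehicle TA replicate 4, where 1146 of 17767 genes reached it with a larger effect in heart. It was 2 with a pseudocount of 1 and 0 without the trend, with the replicate block or with sex as covariate.

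Signs turned for some members, among them Cpt1a, whose heart fold change was -0.37 with labelled sex as covariate. In heart, atrial genes as covariate gave -0.16 for Fabp3, -0.38 for Acsl6, 0.39 for Cpt1a and -0.0212 for Hadhb, and sex read from expression gave -0.0153 for Mlycd. With 1 library left out, Acsl4 ran from -0.0111 (without vehicle heart 3) to 0.0699, and Acsl6 from -0.0287 (likewise) to 0.128, with -0.0215 without D + Q–treated heart 1. Between vehicle tissues, Acacb ran from -0.0601 (without vehicle TA replicate 4) to 0.182 and Crat became 0.0508 with median-of-ratios scaling. Between D + Q tissues, Crat became 0.0486 with that scaling, and Acsl5 ran from -0.0944 (without D + Q–treated heart 1) to 0.264, with -0.0731 without D + Q–treated TA replicate 3. Mlycd lost its call there with sex as covariate or without D + Q–treated heart 2. The cause was not tested.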
